A study of Mus musculus and Rattus norvegicus with 35 samples.

Results

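The nuclear genes of oxidative phosphorylation were followed across mouse tissues, hippocampal ages, neuronal fractions and stimulated rat cultures. Members were all gene symbols in the deposited gene tables that begin with Nduf followed by a, b, c, s or v, with Uqcr, with Cox4 to Cox8, or with Atp5. This gave 87 of 24601 mouse genes and 88 of 22409 rat genes, and 81 symbols were in both tables. By role the mouse members were 36 subunits of complex I, 5 complex I assembly factors, 8 genes of complex III, 18 of complex IV, 2 relatives of complex IV subunits, 15 of complex V and 3 others. The rat set held 36, 7, 8, 16, 2, 14 and 5 genes in the same order. The symbol rule also took in Atp5l-ps1, a pseudogene, and Cox4nb, an older symbol of a gene of an endoplasmic reticulum complex.

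All mice were C57BL/6 and all rats Sprague Dawley, and the labels name no transgene or deletion. Brain, heart, liver, lung and testis each had 1 library from animals of 14 weeks and 2 from animals of 20 weeks, all depleted of ribosomal RNA. An additional 14-week brain library was selected for poly(A) RNA and entered no test. Whole hippocampus was sampled at E18, P1, P10 and P30 with 2 libraries at each age. At 4 weeks, mouse hippocampus gave 1 library of purified synaptosomes (pinched-off nerve terminals) and 1 of homogenate. CA1 neuropil, the layer of dendrites and axons, and CA1 somata, the layer of cell bodies, were microdissected from 500 µm slices. These animals were also 4 weeks old, with 1 library of each layer from mouse and 1 of each from rat. Dissociated rat hippocampal neurons at 28 days in vitro received 40 µM bicuculline, a blocker of GABA-A receptors, for 12 h or served as controls, with 2 libraries of each. The labels do not say whether libraries came from separate animals or cultures, so p-values measure the spread between libraries only. All these samples mix cell types, so fewer cells of a type and less RNA per cell cannot be told apart.

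Oxidative phosphorylation is carried out in the inner mitochondrial membrane. Complex I (NADH dehydrogenase, the Nduf genes) and complex III (the Uqcr genes) pass electrons from nutrients through ubiquinone and cytochrome c to complex IV (cytochrome c oxidase, the Cox genes), which reduces oxygen, and these steps pump protons. Complex V (ATP synthase, the Atp5 genes) lets the protons back and makes ATP. Most subunits are nuclear genes that are on in every tissue, but several complex IV subunits exist as paralogs, with a broadly expressed isoform and another known from heart and skeletal muscle or from testis. Neurons rely on this pathway to pay for ion pumping and synaptic transmission.

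The complex IV isoforms carry the largest tissue differences described here, and the stretches before their starts are shown so that broad and restricted isoforms can be compared. RefSeq promoter windows (build GRCm38.p6) matched 71 of the 87 mouse members by symbol or synonym. The muscle isoform Cox6a2 and the testis isoform Cox8c had no matched window and could not be compared. Each line gives the 120 bases just before the annotated start, 5′ to 3′ on the gene's strand, with every CpG dinucleotide in capitals.
Cox6a1 (chr5:115348959-115349078, minus strand): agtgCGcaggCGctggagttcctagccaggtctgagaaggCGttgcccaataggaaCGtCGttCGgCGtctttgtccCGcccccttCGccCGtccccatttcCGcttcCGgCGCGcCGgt
Cox7a2 (chr9:79759854-79759973, minus strand): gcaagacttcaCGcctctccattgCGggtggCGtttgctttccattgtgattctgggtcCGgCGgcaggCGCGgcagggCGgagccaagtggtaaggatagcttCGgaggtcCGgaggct
Cox7a1 (chr7:30184051-30184170, plus strand): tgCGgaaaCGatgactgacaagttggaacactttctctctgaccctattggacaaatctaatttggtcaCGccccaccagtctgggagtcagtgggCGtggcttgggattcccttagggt
Cox8a (chr19:7217617-7217736, minus strand): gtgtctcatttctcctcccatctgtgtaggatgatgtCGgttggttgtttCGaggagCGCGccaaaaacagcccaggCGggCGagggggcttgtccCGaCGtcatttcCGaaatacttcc
Cox8b (chr7:140900447-140900566, minus strand): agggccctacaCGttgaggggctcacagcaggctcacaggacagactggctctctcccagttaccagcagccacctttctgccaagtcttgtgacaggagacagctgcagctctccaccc
Cox6b1 (chr7:30626115-30626234, minus strand): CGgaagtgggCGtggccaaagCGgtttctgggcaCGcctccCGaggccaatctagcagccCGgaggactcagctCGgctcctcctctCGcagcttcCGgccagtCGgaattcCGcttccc
Cox6b2 (chr7:4753095-4753214, minus strand): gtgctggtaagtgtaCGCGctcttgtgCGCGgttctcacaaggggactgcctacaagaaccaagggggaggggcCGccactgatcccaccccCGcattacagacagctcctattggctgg
Cox7b (chrX:106015580-106015699, plus strand): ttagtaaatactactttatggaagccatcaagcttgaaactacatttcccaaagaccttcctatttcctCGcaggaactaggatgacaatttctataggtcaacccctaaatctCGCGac
Cox7b2 (chr5:71548206-71548325, minus strand): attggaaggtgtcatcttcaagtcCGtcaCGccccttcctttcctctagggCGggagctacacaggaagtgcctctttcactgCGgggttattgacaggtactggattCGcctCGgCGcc
Cox6a1, Cox7a2, Cox8a, Cox6b1 and Cox7b are the broad isoforms. Cox7a1 and Cox8b are the isoforms of heart and muscle, and Cox6b2 and Cox7b2 are known from testis. In the 250 bases before the start Cox6a1 held 26 CpGs, Cox7a2 and Cox6b1 14 each and Cox8a 11, against 4 for Cox7a1 and 1 for Cox8b. Cox7b, although broad, held 5, while Cox6b2 held 8 and Cox7b2 9. The median was 14 CpGs over the 71 members and 6 over all 27025 genes with a window.

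Motifs were searched on both strands in the same 250 bases, letter by letter, and none of the motifs contains another. The palindrome of NRF1, a regulator of respiratory chain genes (GCGCA, any base, then GCGC), was found in 12 of 71 members (16.9%) and in 4.23% of all genes. The 12 were Atp5c1, Atp5g2, Atp5h, Atp5k, Cox6a1, Ndufa11, Ndufa5, Ndufa8, Ndufaf4, Ndufb4, Ndufs5 and Ndufs6, so that among the isoforms shown above only Cox6a1 had it. The ETS motif (CCGGAAGT) was found in 3 members (4.23%, all genes 3.23%), the ERR motif (TCAAGGTCA) in Atp5g3 alone (1.41%, all genes 0.422%) and the CRE motif (TGACGTCA) in 4 (5.63%, all genes 1.77%). A YY1 motif (AAGATGGC) was found in 2 members (2.82%, all genes 1.83%), the E-box CAGCTG in 6 including Cox8b (8.45%, all genes 14.7%), and the MEF2 motif in 0 of 71 (all genes 0.592%). These are letter matches in a short window and were not tested for binding. The NRF1, ETS and CRE motifs themselves contain CpG, and members held more CpGs than all genes (median 14 against 6). The shares were not matched for CpG content.

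TPM keeps no read depth, so depth is unknown and counting intervals cannot be given. Between 11728 and 15605 genes reached 1 TPM in a mouse library and between 13007 and 13971 in a rat library, and 77 to 84 of the 87 mouse members did. Cox4i1, the broad isoform of complex IV subunit 4, is listed at 0 in all 28 mouse libraries although it reached 1290 to 1639 TPM in the 6 rat libraries, so the mouse table holds no usable value for it. Cox4nb is also listed at 0 throughout in mouse. Rat Ndufs6 stayed below 1 TPM in all 6 libraries. Cardiac and spermatid markers followed the tissue labels. The summed TPM of 5 cardiac muscle markers was 36634 to 50251 in heart and at most 552 elsewhere. That of 5 spermatid markers was 38694 to 56774 in testis and at most 37.2 elsewhere. Not every marker list was that specific. The 5 microglia markers summed to 776 to 900 TPM in testis and 172 to 238 TPM in brain. The 5 astrocyte markers summed to 721 to 1207 TPM in liver and 901 to 1007 TPM in brain.

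Heart devoted far more of its measured RNA to the respiratory chain than any other tissue. The members together made up 13.0% ± 1.63 (SD, n = 3) of all TPM in heart, 3.84% ± 0.415 in brain, 2.49% ± 0.137 in liver, 1.79% ± 0.103 in testis and 1.45% ± 0.148 in lung (n = 3 each). The lowest heart library stood at 11.2% and the highest library of any other tissue, a brain library, at 4.15%, so heart did not overlap the rest. In heart the most abundant member was Atp5b, the catalytic beta subunit of ATP synthase, at 7150 ± 573 TPM (SD, n = 3), followed by Cox7a1 at 6297 ± 1805 TPM. The complexes took similar parts of the members' summed TPM in heart (complex I 28.3%, III 12.0%, IV 28.3%, V 30.8%) and in liver (29.3%, 13.7%, 25.9% and 29.9%). Testis had the largest share of complex I (35.9% ± 0.463) and the smallest of complex V (21.7% ± 1.24), and neither range overlapped that of another tissue.

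Each tissue was compared with the mean of the other 4 by limma on log2(TPM + 1), with p-values adjusted over all genes tested and a threshold of 0.05. Members named for the largest differences were chosen among those whose libraries did not overlap, so lack of overlap adds no support for them. Of 84 members tested, 77 rose in heart and 4 fell, where 19.7% of all genes tested were higher and 45.1% lower. The members' median difference was 2.48 on the log2(TPM + 1) scale, which understates changes of low genes, and that of all genes was -0.38. After libraries were scaled to equal medians the median of all genes was -0.09. Then 78 members rose and 3 fell, where 26.8% of all genes were higher and 32.1% lower. All 36 complex I subunits, all 8 complex III genes and all 15 complex V genes rose, with differences of 1.02 to 3.01, 2.17 to 2.89 and 1.91 to 3.76. In complex IV 12 of 17 rose and 4 fell. For 72 members all 3 heart libraries were above all 12 others, as for 5.22% of all genes, and for 0 members were they all below (2.07% of all genes). Among the 71 members with a mean of at least 1 TPM in every tissue and the highest mean in heart, the heart mean was 1.32 to 151 times the next highest tissue, with a median of 2.99. The 14-week libraries alone gave the same sign for all 81 members called.

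The largest cardiac differences belonged to the muscle isoforms of complex IV. Cox8b stood at 3680, 3939 and 2299 TPM in the 3 heart libraries and at 26.9 TPM or less in the other 12, a difference of 9.59 (SE 0.39, limma adjusted p = 1.77e-10). Cox7a1 stood at 7075, 7583 and 4233 TPM in heart and at 5.16 to 65.5 TPM elsewhere (difference 8.71, SE 0.33, limma adjusted p = 1.07e-10). Cox6a2 stood at 1501, 1658 and 2269 TPM in heart and at 30.4 TPM or less elsewhere (difference 8.40, SE 0.28, limma adjusted p = 2.32e-11). For each of these genes every heart library was far above every other library. As a share of their families in heart, Cox6a2 made up 88.6% ± 1.19 of Cox6a, Cox7a1 83.6% ± 1.60 of Cox7a and Cox8b 90.0% ± 2.72 of Cox8 (SD, n = 3). Their broad partners did not move alike. Cox6a1 was at 209, 223 and 253 TPM in heart and at 211 to 1341 TPM elsewhere, and it fell by 0.88 (SE 0.14, limma adjusted p = 8.54e-05), with overlap. Cox8a did not pass (0.16, SE 0.17, adjusted p = 0.41), while Cox7a2 rose by 1.61 (SE 0.27, adjusted p = 0.000137) in every heart library.

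**Figure D1:**
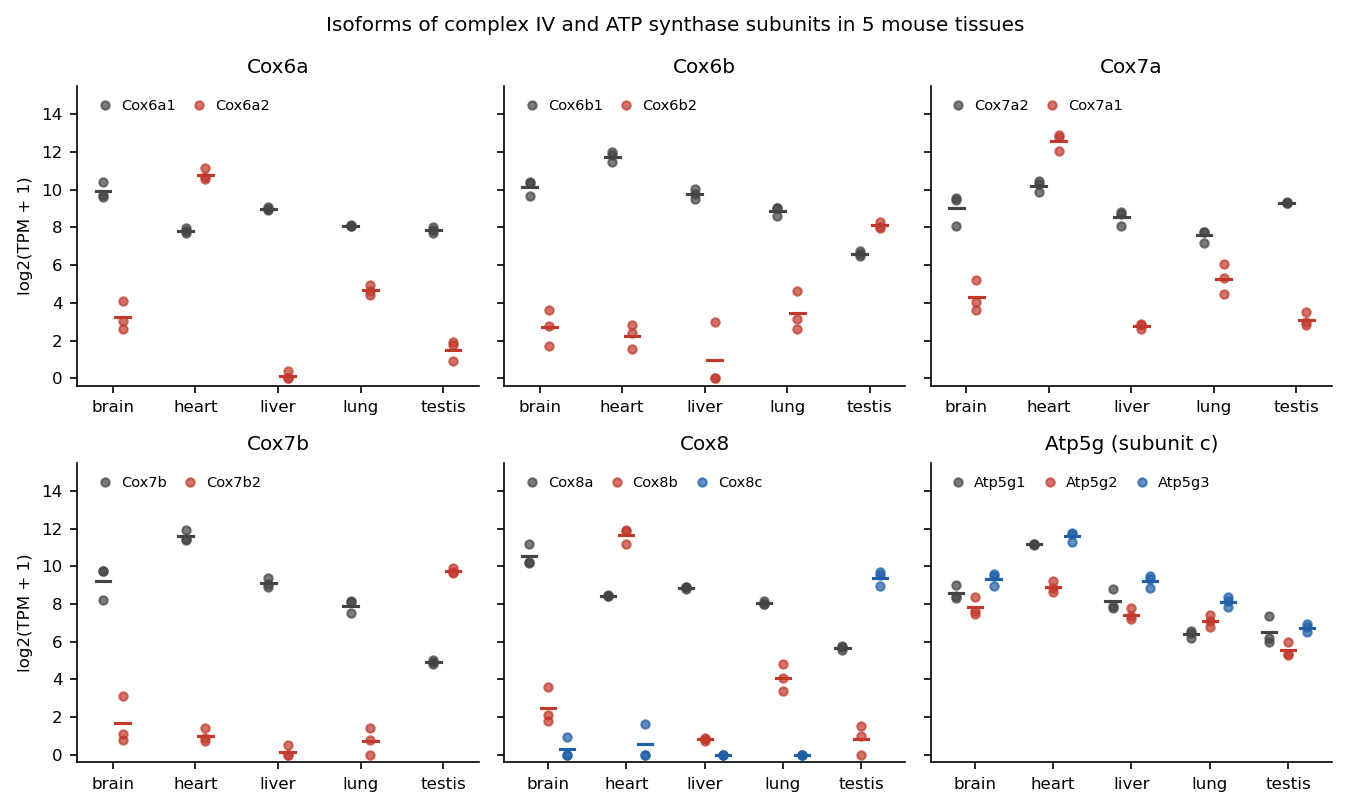
Each point is 1 rRNA-depleted library, the short bar is the mean of 3, the horizontal axis is the tissue and the vertical axis is log2(TPM + 1). Cox6a2, Cox7a1 and Cox8b stand above their partners in heart, Cox6b2, Cox7b2 and Cox8c do so in testis, and the 3 genes of ATP synthase subunit c are all highest in heart.

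Subunits without a muscle isoform among the members were raised in heart as well. Subunit c, which forms the rotating ring of ATP synthase, has 3 genes for the same mature protein. Atp5g1 stood at 2272, 2356 and 2339 TPM in heart and at 62.7 to 522 TPM elsewhere (difference 3.76, SE 0.27, limma adjusted p = 3.42e-08). Atp5g3 stood at 3514, 3386 and 2457 TPM in heart and at 91.9 to 756 TPM elsewhere (difference 3.24, SE 0.18, limma adjusted p = 3.43e-09), and Atp5g2 rose by 1.91 (SE 0.22, limma adjusted p = 4.05e-06). Cox7b, a small structural subunit of complex IV, stood at 2760, 3919 and 2674 TPM in heart and at 27.5 to 865 TPM elsewhere (difference 3.78, SE 0.27, limma adjusted p = 3.51e-08). None of these heart libraries overlapped another tissue. Ndufaf2 and Ndufaf3, assembly factors of complex I, and Cox8a were the 3 tested members called in neither direction in heart. The other members that fell were Cox8c (-1.88, limma adjusted p = 0.000114), Cox7b2 (-2.06, limma adjusted p = 0.000436) and Cox6b2 (-1.56, limma adjusted p = 0.0322), the testis isoforms, and with a pseudocount of 0.1 TPM none of these 3 passed (adjusted p = 0.0577, 0.0864 and 0.313). For these isoforms the mean of the other tissues includes testis, where they were high. Heart libraries also held 65.3 to 105 TPM of 3 fat markers (Ucp1, Cidea and Adipoq) against at most 23.1 TPM elsewhere. The part of fat cells in the isoform levels was not tested. Of 5 skeletal muscle markers only Ckm, which cardiac muscle also expresses, was high in heart (1889 to 2113 TPM). The other 4 summed to at most 6.44 TPM in heart and 21.1 TPM elsewhere, with Acta1 listed at 0.

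Testis had low levels of most broad subunits and its own set of complex IV isoforms. Of 84 members 10 rose and 61 fell, where 32.9% of all genes tested were higher and 47.8% lower. The median member difference was -1.11 and that of all genes -0.41. All 15 complex V genes fell, with 25 of 36 complex I subunits, 6 of 8 complex III genes and 12 of 17 of complex IV. Testis held the lowest tissue mean for 31 members, against 42 in lung, 10 in liver and 1 in heart. All 3 testis libraries were above the 12 others for 6 members (21.1% of all genes) and below them for 18 (14.5% of all genes). The 14-week libraries alone gave the same sign for 70 of the 71 members called.

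The members raised in testis were led by isoforms of complex IV. Cox8c stood at 837, 734 and 503 TPM in testis and at 2.15 TPM or less elsewhere, being listed at 0 in most of those libraries (difference 9.18, SE 0.31, limma adjusted p = 2.27e-12). Cox7b2 stood at 784, 838 and 958 TPM in testis and at 7.75 TPM or less elsewhere (difference 8.84, SE 0.40, limma adjusted p = 6.19e-11). Cox6b2 stood at 317, 264 and 247 TPM in testis and at 24.0 TPM or less elsewhere (difference 5.75, SE 0.59, limma adjusted p = 5.92e-07). The 3 testis libraries lay above all others for each gene, and Cox7b2 and Cox8c were the most abundant members of all in testis. Within their families Cox7b2 made up 96.7% ± 0.153 of Cox7b, Cox8c 92.9% ± 1.09 of Cox8 and Cox6b2 73.8% ± 3.00 of Cox6b (SD, n = 3).

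The broad partners were at their lowest in testis. Cox7b stood at 27.5, 29.9 and 31.2 TPM there and at 181 to 3919 TPM elsewhere (-4.53, SE 0.27, limma adjusted p = 1.44e-09). Cox8a stood at 53.1, 52.2 and 45.4 TPM against 253 to 2298 TPM (-3.29, SE 0.17, limma adjusted p = 2.51e-10). Cox6b1, which bridges the monomers of complex IV, stood at 95.0, 108 and 89.4 TPM against 385 to 4150 TPM (-3.52, SE 0.18, limma adjusted p = 3.53e-10). No testis library reached the range of the other tissues for these genes. The same held for Ndufa4, now counted with complex IV (106 to 112 TPM against 374 to 5896, -3.82, limma adjusted p = 3.63e-09), for Ndufb11, an accessory subunit of complex I (14.8 to 25.3 TPM against 94.3 to 610, -3.37, limma adjusted p = 1.47e-10), and for Atp5g3 (91.9 to 120 TPM against 228 to 3514, -2.81, limma adjusted p = 2.94e-09). Cox7a2 has no testis-restricted partner among the members, and it stood at 629 to 642 TPM in testis (0.47, SE 0.27, limma adjusted p = 0.12). Of the 5 complex I assembly factors 2 rose and 2 fell in testis. Ndufaf4 stood at 8.03 to 9.53 TPM there and at 19.5 to 121 TPM elsewhere (-2.41, SE 0.13, limma adjusted p = 3.64e-10), and Ndufaf1 also fell, with overlap (-0.94, SE 0.17, limma adjusted p = 0.000158). Ndufaf3 stood at 178, 163 and 316 TPM in testis and at 5.17 to 79.9 TPM elsewhere (3.17, SE 0.33, limma adjusted p = 6.27e-07). Ndufaf2 stood at 152, 135 and 120 TPM against 20.7 to 76.2 TPM (1.85, SE 0.23, limma adjusted p = 4.76e-06). Atp5s, coupling factor B of ATP synthase, stood at 46.7, 42.2 and 40.9 TPM against 5.50 to 27.8 TPM (1.61, SE 0.15, limma adjusted p = 1.70e-07), and for Ndufaf3, Ndufaf2 and Atp5s testis stood above every other library.

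**Figure D2:**
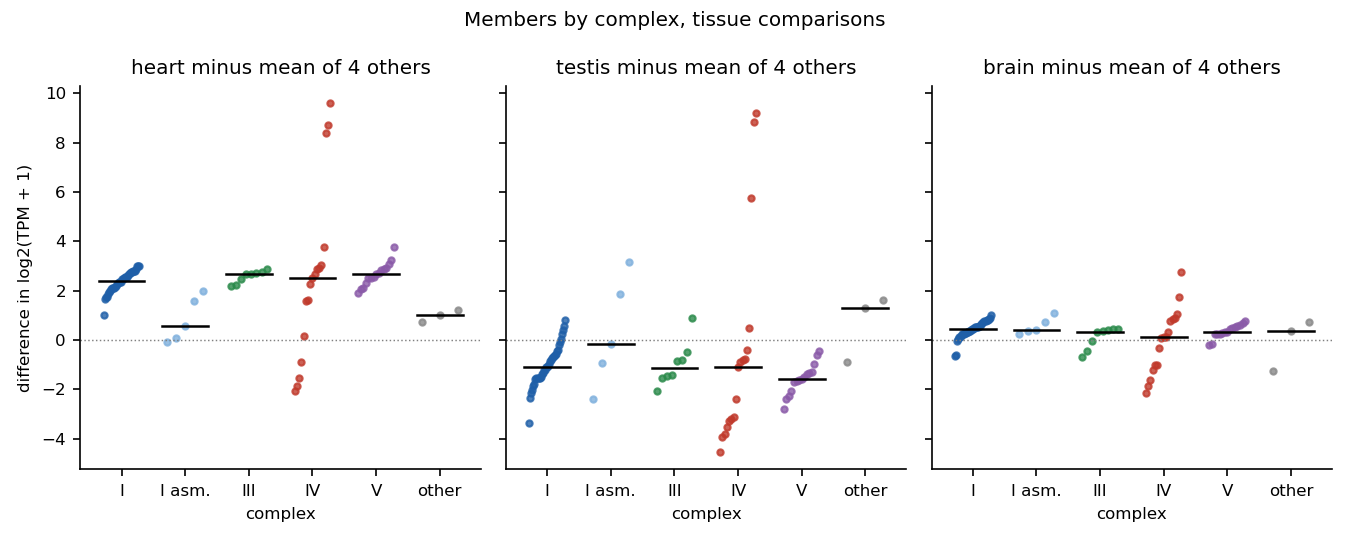
Each point is 1 member, sorted within its complex, the black bar is the median, and the vertical axis is the limma difference in log2(TPM + 1) between a tissue and the mean of the other 4 (complex I assembly factors are set apart as I asm.). In heart complexes I, III and V lie wholly above 0, in testis complex V lies wholly below 0, and complex IV spreads widest in both.

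Brain differed little from the mean of the other 4 tissues, which includes heart, and its count depended on the scaling. In share of TPM its 3 libraries (3.37% to 4.15%) lay below heart and above every liver, testis and lung library (at most 2.64%). Of 84 members 37 rose and 7 fell, where 45.4% of all genes tested were higher and 28% lower, with a median of 0.35 against 0.34 over all genes. After libraries were scaled to equal medians the counts were 2 higher and 33 lower (24.2% and 49.3% of all genes), with a member median of -0.47 and a median over all genes of -0.48, so no direction is drawn for the group in brain. Leaving out either 20-week brain library left 24 members higher, with 7603 of 18462 and 7559 of 18466 genes tested. Only Cox8a and Cox6a1, broad isoforms of complex IV, had all 3 brain libraries above all others (18.6% of all genes did), and these were the 2 called higher under that scaling. Cox8a stood at 1200, 1146 and 2298 TPM in brain and at 45.4 to 474 TPM elsewhere (2.76, SE 0.17, limma adjusted p = 3.39e-09). Cox6a1 stood at 794, 854 and 1341 TPM in brain and at 209 to 535 TPM elsewhere (1.72, SE 0.14, limma adjusted p = 8.23e-08). In both genes the 14-week library was the highest, and the poly(A) library of the same age gave 3187 and 2930 TPM. The fallen members were Cox8c (-2.16), Cox7a1 (-1.64), Cox8b (-1.87), Cox6a2, Cox7b2, Ndufa4l2 and Uqcrq, and for all of them the brain libraries overlapped other tissues.

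Lung had the lowest mean for 42 members, yet it held the highest levels of Cox4i2, the isoform of complex IV subunit 4 known from lung. Cox4i2 stood at 49.5, 41.3 and 78.0 TPM in lung, at 10.1 to 13.9 TPM in heart, at 2.43 to 4.84 TPM in rRNA-depleted brain, below 1 TPM in testis and at 0 in all 3 liver libraries. No lung library overlapped another tissue, although no separate lung contrast was fitted. Lung also held some of the muscle isoforms, with Cox6a2 at 8.34% of its family, Cox7a1 at 17.0% and Cox8b at 6.18%. The 5 cardiac muscle markers summed to 387 to 552 TPM in the same lung libraries, against 2.24 to 60.1 TPM in brain, liver and testis, and their part in these isoforms was not tested. The members differed greatly in how evenly they were expressed. The ratio of the highest to the lowest tissue mean ran from 2.42 for Atp5sl (now Dmac2, a complex I assembly factor) and 2.92 for Ndufa7 to 106 for Cox7b, 121 for Cox6b2 and 1060 for Cox7a1, with a median of 10.2 over 78 members.

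Other genes of energy metabolism were counted in the same fits. Of 39 listed respiratory assembly factors outside the symbol rule 25 were tested. In heart all 4 genes of complex II rose, with 17 of 18 genes of the tricarboxylic acid cycle and 19 of these 25 assembly factors. Among 23 glycolysis genes 12 rose and 8 fell in heart, where 19.7% of all genes tested were higher and 45.1% lower. In testis all 4 complex II genes fell, with 13 of 18 tricarboxylic acid cycle genes and 19 of 25 assembly factors. Among 23 glycolysis genes 10 rose and 10 fell in testis, where 32.9% of all genes tested were higher and 47.8% lower. Testis paralogs outside the members were high there too. Cyct, the testis form of cytochrome c, was at 314 ± 64.4 TPM in testis, and Slc25a31, a testis ADP/ATP carrier, at 73.0 ± 13.5 TPM (SD, n = 3).

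In hippocampus the members rose after birth and most stood highest at P10. They made up 3.04% ± 0.252 of all TPM at E18, 3.34% ± 0.300 at P1, 4.92% ± 0.177 at P10 and 4.14% ± 0.589 at P30 (SD, n = 2 each). Both P10 libraries (4.80% and 5.05%) were above all 6 others, of which the highest was a P30 library at 4.56%. Of the 84 members tested the highest mean was at P10 for 63, at P30 for 15, at E18 for 4 and at P1 for 2. Between E18 and P1 no member rose and 2 fell by limma, where 1.2% of all genes tested were higher and 0.524% lower. The smallest p-values among higher members belonged to Ndufa5 (0.47, adjusted p = 0.0946), Cox6b2 (0.50, adjusted p = 0.251) and Ndufa4 (0.41, adjusted p = 0.285). The 2 that fell were Cox4i2, at 5.46 and 5.38 TPM at E18 and 1.72 and 1.29 TPM at P1 (-1.36, SE 0.18, limma adjusted p = 0.015), and Ndufa4l2, at 6.09 and 5.83 TPM and then 2.58 and 2.24 TPM (-1.03, SE 0.18, limma adjusted p = 0.0297). Both genes are known to respond to low oxygen, and a part of oxygen here was not tested. Their libraries did not overlap between the ages, which was a condition for naming them. Both are low and neither passed when genes under 1 TPM were kept in the test (limma adjusted p = 0.0519 and 0.079). The 4 blood markers also fell, with sums of 1997 to 2224 TPM at E18 and 618 to 834 TPM at P1, and their part was not tested.

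The main rise fell between P1 and P10. Of 84 members 43 rose and 1 fell, where 17.2% of all genes tested were higher and 18% lower, and the members' median was 0.49 against -0.07 for all genes. By complex 18 of 36 complex I subunits rose, with 6 of 8 genes of complex III, 8 of 16 of complex IV and 9 of 15 of complex V. Ndufs1, the largest iron-sulfur subunit of complex I, stood at 92.6 and 110 TPM at P1 and at 182 and 202 TPM at P10 (0.92, SE 0.14, limma adjusted p = 0.00144). Ndufs8, another iron-sulfur subunit, stood at 97.5 and 84.8 TPM and then at 172 and 175 TPM (0.92, SE 0.16, limma adjusted p = 0.00221). Uqcr11, a small subunit of complex III, stood at 749 and 600 TPM and then at 1232 and 1357 TPM (0.95, SE 0.20, limma adjusted p = 0.00664). In all of them both P10 libraries were above both P1 libraries, which was a condition for naming them. Cox8a rose from 922 and 564 TPM to 1819 and 1458 TPM (1.17, SE 0.34, limma adjusted p = 0.0242) and Atp5s from 11.1 and 10.8 TPM to 24.3 and 22.8 TPM (1.04, SE 0.16, limma adjusted p = 0.00127). The only one to fall was Cox6b2, from 5.82 and 4.85 TPM to 3.10 and 3.36 TPM (-0.58, limma adjusted p = 0.04). With genes under 1 TPM kept in the test neither Cox8a nor Cox6b2 passed (adjusted p = 0.0725 and 0.0692). With 2 libraries at each age, leaving out 1 left a single library in a group, so only the median is given. The member median was 0.57 without P1 replicate 1 and 0.42 without P1 replicate 2 (all genes -0.12 and -0.003). It was 0.48 without P10 replicate 1 and 0.53 without P10 replicate 2 (all genes -0.07 in both).

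**Figure D3:**
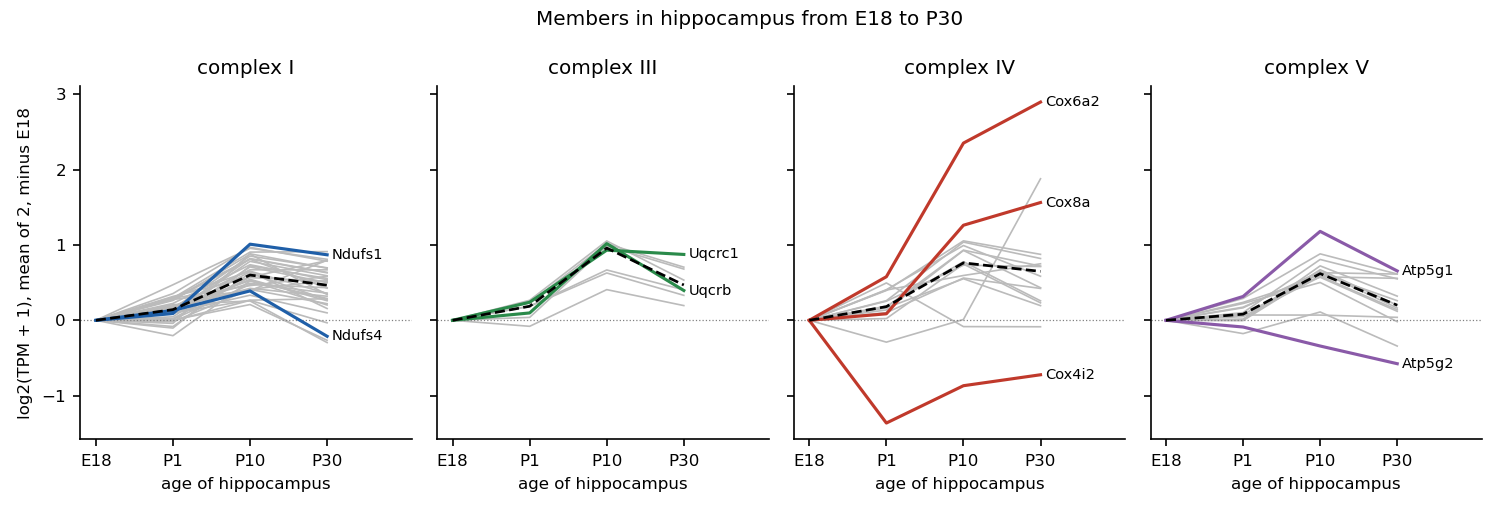
Lines are members, the dashed line is the median of the complex, the horizontal axis is age and the vertical axis is the mean log2(TPM + 1) of 2 libraries minus that at E18, with named genes coloured. In each complex the median climbs to P10 and is lower at P30, while Cox6a2 and Cox8a climb further and Cox4i2 and Atp5g2 lie below their E18 level.

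Over the whole span from E18 to P30, 41 members rose and 4 fell, where 29.5% of all genes tested were higher and 26.8% lower, with a median of 0.41 against 0.01 for all genes. The member median was 0.50 without E18 replicate 1, 0.34 without E18 replicate 2, 0.30 without P30 replicate 1 and 0.59 without P30 replicate 2. All 7 catalytic core subunits of complex I rose. Cox6a2, the muscle isoform, made the largest move although it stayed low, from 1.22 and 0 TPM at E18 to 10.3 and 9.90 TPM at P30 (2.89, SE 0.33, limma adjusted p = 6.28e-05), beside Cox6a1 at 1314 and 895 TPM. Cox8a stood at 838 and 550 TPM at E18 and at 2780 and 1449 TPM at P30 (1.56, SE 0.34, limma adjusted p = 0.00329). Uqcrc1, a core protein of complex III, stood at 157 and 183 TPM and then at 337 and 288 TPM (0.87, SE 0.17, limma adjusted p = 0.00208). The ages did not overlap in any of these, which was a condition for naming them. Ndufb9, Ndufs1 and Atp5sl also rose, by 0.91, 0.87 and 0.97 on the log2 scale. Ndufaf2, an assembly factor, went from 111 and 110 TPM to 58.4 and 57.4 TPM (-0.92, SE 0.13, limma adjusted p = 0.000225). Atp5g2, the subunit c gene with the NRF1 motif, went from 512 and 467 TPM to 366 and 293 TPM (-0.58, SE 0.18, limma adjusted p = 0.0189), while its paralog Atp5g1 rose from 402 and 401 TPM to 685 and 583 TPM (0.65, SE 0.15, limma adjusted p = 0.00403). Cox4i2 (-0.72) and Ndufa4l2 (-0.69) were the other 2 that fell.

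From P10 to P30, 2 members rose and 17 fell, where 17% of all genes tested were higher and 12.5% lower. The member median was -0.21 against 0.06 for all genes, and complex V gave 6 of the 17. Uqcrb, a subunit of complex III, stood at 814 and 713 TPM at P10 and at 516 and 474 TPM at P30 (-0.62, SE 0.13, limma adjusted p = 0.00864). Atp5g1 stood at 851 and 973 TPM and then at 685 and 583 TPM (-0.52, SE 0.15, limma adjusted p = 0.025). Ndufs4, an accessory complex I subunit, stood at 185 and 156 TPM and then at 121 and 103 TPM (-0.60, SE 0.15, limma adjusted p = 0.0172). In these the P30 libraries lay wholly below the P10 libraries, as they did for Ndufaf2 (-0.60), Ndufc2 (-0.55) and Atp5o (-0.52). This was a condition for naming them. Ndufc2 and Atp5o did not pass with genes under 1 TPM kept (limma adjusted p = 0.0653 and 0.0615). The 2 that rose were Atp5sl, from 27.6 and 24.7 TPM to 49.1 and 48.0 TPM (0.87, SE 0.16, limma adjusted p = 0.00362), and Cox8b, from 0.517 and 0 TPM to 3.77 and 3.23 TPM (1.87). Cox8b passed the filter on low values only through its 2 P30 libraries, so its p-value is not given as support. The member median was -0.19 without P10 replicate 1 and -0.25 without P10 replicate 2 (all genes 0.05 and 0.06). It was -0.33 without P30 replicate 1 and -0.10 without P30 replicate 2 (all genes -0.004 and 0.11). In P30 replicate 2, 3 gene models of satellite-like sequence took 9.54% of TPM (1.24% or less in the other mouse libraries). With these models removed from all libraries 16 members fell (19% of members), when 11.7% of all genes were lower. After scaling to equal medians 28 fell (33.3% of members), when 21.5% of all genes were lower.

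Other pathways and cell types changed over the same ages. From P1 to P10, 14 of 17 genes of the tricarboxylic acid cycle and 16 of 19 glycolysis genes rose, where 17.2% of all genes tested were higher. From P10 to P30, 9 of 19 glycolysis genes rose and 1 fell, and 2 of 17 genes of the tricarboxylic acid cycle fell. In that step 17% of all genes tested were higher and 12.5% lower. The summed TPM of 5 neuron markers was 498 to 529 at P1, 1848 to 1943 at P10 and 4175 to 4316 at P30. That of 5 oligodendrocyte markers was 22.2 to 24.6, 203 to 454 and 8529 to 9627, and that of 5 progenitor and cycling markers was 347 to 459, 147 to 152 and 45.8 to 57.1. The 5 astrocyte markers summed to 451 to 614 TPM at P1, 1152 to 1153 at P10 and 991 to 1012 at P30, and like the members they were highest at P10. All 5 rose from P1 to P10, and 0 rose and 1 fell from P10 to P30. The 5 microglia markers, which also all rose from P1 to P10, summed to 79.5 to 102, 200 to 208 and 250 to 277 TPM. The 5 liver markers, which include Ttr, varied widely between libraries of an age. They summed to 14.3 to 265 TPM at P1, 9.65 to 3430 at P10 and 325 to 1286 at P30. The part of all these differences in the member levels was not tested.

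Synaptosomes were compared with their homogenate in 1 library each, so no test was possible and the values describe these 2 libraries. Of 83 members 6 were more than 1.5-fold higher in the synaptosome library and 17 more than 1.5-fold lower, where 12.9% of all genes were that much higher and 33.3% lower. The member median was -0.20 and that of all genes -0.29. After scaling to equal medians 13 were higher and 5 lower (15.7% and 6.02%, against 21.9% and 17.8% of all genes), so the split depends on the scaling. The members nonetheless summed to 5.19% of TPM in synaptosomes and 4.47% in homogenate. Complex IV took 45.1% of that sum in synaptosomes and 29.2% in homogenate, and complex V 19.2% and 28.3%. Cox6a1 stood at 5118 against 1198 TPM (4.27-fold), Ndufb9 at 2311 against 743 TPM (3.11-fold), Cox8a at 6567 against 2178 TPM (3.01-fold) and Cox6c at 3453 against 1681 TPM (2.05-fold). The other 2 past 1.5-fold were the muscle isoforms Cox7a1, at 19.3 and 8.71 TPM, and Cox8b, at 7.43 and 3.53 TPM. In the other direction Ndufab1, the mitochondrial acyl carrier protein, stood at 138 against 404 TPM (2.90-fold lower), Atp5g3 at 350 against 707 TPM (2.02-fold lower) and Ndufaf4 at 33.0 against 64.8 TPM (1.93-fold lower), with Ndufa11 and Ndufb6 also among the 5 lowest (1.85-fold and 1.74-fold lower). Synaptosomes also held 10325 TPM of 5 oligodendrocyte markers against 5430 TPM in homogenate, and 2682 TPM of 5 astrocyte markers against 819 TPM, and their part in these differences was not tested.

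CA1 neuropil and somata were likewise compared in 1 library each from mouse and rat. In mouse 5 of 83 members were more than 1.5-fold higher in neuropil and 1 was lower, where 18.9% of all genes were higher and 5.91% lower. In rat 2 of 85 were higher and 2 lower, where 22.5% of all genes were higher and 7.1% lower. The members' median was -0.10 in mouse (all genes 0.00) and -0.16 in rat (all genes 0.09), and they summed to 3.98% of TPM in neuropil and 4.15% in somata in mouse, and to 4.27% and 4.67% in rat. Of 77 members measured in both species 60 had the same sign (77.9%), as had 75.6% of all genes measured in both. Of these 60, 51 were lower in neuropil and 9 higher. Of the 8559 genes with the same sign over all genes, 4020 were lower and 4539 higher. Scaling to equal medians left fewer members above 0, 14 in place of 25 in mouse and 11 in place of 15 in rat. The members past 1.5-fold higher in mouse were all low in TPM. They were Ndufa4l2 (8.28 and 1.27 TPM), Cox4i2 (5.97 and 1.31 TPM), Cox7a1 (13.2 and 4.22 TPM), Cox6b2 (2.36 and 0.394 TPM) and Cox6a2 (5.79 and 3.02 TPM). In rat Ndufa4l2 was again higher in neuropil, at 14.3 and 5.52 TPM, as was Ndufb4l1, at 1.51 and 0.582 TPM, while Cox8b was listed at 0 and at 1.43 TPM. The endothelial marker sum was also higher in neuropil, at 262 and 92.1 TPM in mouse and 304 and 129 TPM in rat, and its part in these values was not tested.

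Ndufaf4 stood at 40.5 TPM in neuropil and 66.3 TPM in somata in mouse (1.62-fold lower) and at 32.7 and 48.9 TPM in rat (1.48-fold lower). Ndufab1 stood at 268 and 385 TPM in mouse and at 229 and 306 TPM in rat. Both were thus among the 5 lowest members with a mean of at least 10 TPM in each species and also in synaptosomes. On the higher side Cox6a1 stood at 1084 and 797 TPM in mouse neuropil and somata (1.36-fold) and at 1955 and 1767 TPM in rat (1.11-fold). Ndufb9 stood at 975 and 833 TPM in mouse and at 747 and 652 TPM in rat, and Atp5g2 at 238 and 218 TPM in mouse and at 453 and 383 TPM in rat. These 3 were higher in neuropil in both species, by less than 1.5-fold. The mouse list was completed by Ndufa3 (762 and 700 TPM) on the higher side and by Ndufs3, Ndufaf3 and Ndufv2 on the lower side (1.40-fold, 1.36-fold and 1.34-fold lower). The rat list held Cox4nb, no respiratory gene, and Ndufa13 (1.34-fold and 1.16-fold higher) and Atp5f1 and Ndufc1 (1.44-fold and 1.40-fold lower). Cox8a stood at 2591 and 2057 TPM in mouse neuropil and somata and at 1762 and 1687 TPM in rat. Among members of at least 10 TPM Ndufa5 had the lowest difference in rat, with 496 TPM in neuropil and 759 TPM in somata (1.53-fold lower). Neuropil libraries also held more astrocyte marker RNA, 1974 against 730 TPM in mouse and 4019 against 1787 TPM in rat, and its part in these differences was not tested.

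Bicuculline for 12 h left the members nearly as in control cultures. They summed to 4.46% and 4.52% of TPM with bicuculline and to 4.60% and 4.63% in controls. Of 84 members 1 rose and 0 fell by limma, where 2.06% of all genes tested were higher and 0.51% lower, and at an unadjusted p under 0.05 it was 2 and 4. The member median was -0.08 and that of all genes -0.07. The member that rose was Ndufa4l2, at 3.47 and 3.54 TPM with bicuculline and listed at 0 in both controls (2.17 on the log2(TPM + 1) scale). It passed the filter on low values only through the 2 bicuculline libraries, so its p-value is not given as support. Without either of them it was not tested, and against 0 TPM a fold cannot be given. Ndufa5, a subunit of the complex I arm in the matrix, stood at 627 and 539 TPM against 406 and 438 TPM (0.46, SE 0.13, limma adjusted p = 0.145). Atp5sl stood at 24.7 and 26.7 TPM against 44.1 and 36.2 TPM (-0.62, SE 0.16, limma adjusted p = 0.129). Ndufs7 (-0.30, adjusted p = 0.228) and Ndufb10 (-0.29, adjusted p = 0.235) had the next smallest p-values among lower members, and Uqcr10 (0.30, adjusted p = 0.45) followed Ndufa5 among higher ones. The groups did not overlap for Ndufa5, Atp5sl, Ndufs7 or Ndufb10, but none of these passed in this fit, which used no pairing. With the replicate number as a block 2 members rose and 4 fell, these among them. Of all genes 11.2% were then higher and 13.5% lower. Over all 84 members both treated libraries lay below both controls for 22 (26.2%) and above them for 5 (5.95%), against 30.5% and 20.9% of all genes tested. All 7 catalytic core subunits of complex I were among the 22, with differences of -0.30 to -0.09 and a median of -0.19. Without the block 0 of the 7 passed. Cox4i1, measured in rat, stood at 1290 and 1390 TPM against 1303 and 1441 TPM. No gene of complex II, the tricarboxylic acid cycle, glycolysis or the assembly lists was called either.

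Circular RNAs, formed when an exon end is joined back to an earlier exon start, were few from these genes. In mouse 29 of 28482 circular RNAs had a member as host, from 14 hosts, with 264 of 403379 back-splice reads over all libraries. Of the 85 members that reached 1 TPM in some library 15.3% hosted a circular RNA, against 28.8% of 20389 genes at that level. In rat 14 circular RNAs came from 8 hosts, with 134 of 83809 reads, and 9.30% of members hosted one against 31.5% of genes. The most frequent in mouse came from Ndufs1 (chr1:63194970-63195145 in mm9, as the deposited table gives it), with 84 reads in 21 of 28 libraries. Its highest level was 11.1 RPM, from 6 reads, in a 20-week brain library. In rat the most frequent was assigned by the deposited table to Atp5j, which encodes a subunit of the ATP synthase stalk (chr11:27889440-27918235 in rn5), with 87 reads over all 6 libraries. At these depths no comparison between groups was made.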

How the data were processed

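RNA levels were measured by sequencing in 28 mouse and 6 rat libraries. The authors deposited 1 table of TPM for each species. They deposited circular RNAs as RPM, back-splice reads scaled to a total not given in the sources used here. The submitters' processing notes name the builds mm9 and rn5 and list Cufflinks (2.2.1), TopHat2 (2.0.6) and CASAVA (1.8.2) without a role. RPM values were turned into whole reads by dividing by the value of 1 read in each library. The share that came out whole within 0.1 was 100% in mouse and 99.8% in rat, and no test was made on them.

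Differences were fitted with limma 3.58.1 (R 4.3.3, trend, two-sided) on log2(TPM + 1), with Benjamini-Hochberg adjustment over all genes tested and a threshold of 0.05. Genes needed 1 TPM in at least 3 of the 15 rRNA-depleted tissue libraries, or in at least 2 hippocampus or culture libraries. Pairs of single libraries were described by a 1.5-fold limit with no test. Tables were handled in Python 3.11.15 with pandas 2.3.3, numpy 2.4.6 and matplotlib 3.10.9, and the limma step was tested on simulated data. The text names up to 6 members per direction with the largest difference among those called, with at least 5 TPM and libraries that do not overlap, or else the 3 with the smallest p. In the pairs it names the 5 highest and 5 lowest with at least 10 TPM, and it always considers the complex IV and subunit c isoform families. A few others (Cox8b between P10 and P30, members past 1.5-fold in the pairs, members not called in heart, Ndufaf1 and Ndufaf4 in testis, complex I core subunits with bicuculline) were chosen after their values were seen. Members and lists were chosen with earlier results of these data known. Promoter windows are from RefSeq (GRCm38.p6).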

Additional observations from a re-analysis of the deposited data

How the results depend on the processing

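In heart, testis, and between P1 and P10 the balance of risen and fallen members kept its direction under every alternative tried, while in brain and synaptosomes it turned with the scaling. Shares of all genes follow in brackets. With a pseudocount of 0.1 TPM 1 member fell in heart (40.5%) and 4 in brain (23.7%). With libraries scaled to equal medians 2 rose (24.2%) and 33 fell (49.3%) in brain, 0 fell from P1 to P10 (17.5%) and 28 fell from P10 to P30 (21.5%). The same scaling gave 13 higher (21.9%) and 5 lower (17.8%) in synaptosomes, 2 lower in mouse neuropil (9.17%), and 1 higher (17.7%) and 5 lower (11.5%) in rat neuropil. With no filter on low values 0 fell from E18 to P1 (0%) and 0 from P1 to P10 (10.6%). Past 2-fold, 4 were lower in synaptosomes (14%), 0 lower in mouse neuropil (0.97%), and 1 higher (8.35%) and 1 lower (1.47%) in rat neuropil. In 20-week libraries alone, an alternative chosen after seeing the data, 62 rose in brain (54.4%). The member median was then 0.47 and that of all genes 0.52. The causes were not tested. The alternative without mitochondrially encoded genes was not run because 0 of them are in the tables used.

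Leaving out each library in turn gave 76 to 78 risen and 3 to 4 fallen members in heart, 9 to 11 and 57 to 62 in testis, and 24 to 47 and 6 to 7 in brain. It gave 25 to 41 risen and 3 to 4 fallen from E18 to P30, 0 to 0 and 0 to 1 from E18 to P1, 20 to 44 and 0 to 1 from P1 to P10, and 1 to 2 and 1 to 17 from P10 to P30. With bicuculline it gave 0 to 1 risen and 0 to 0 fallen. From E18 to P1, 0 fell without either E18 library and 1 without any other. From P10 to P30, 1 rose without either P30 library.

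Deviations of same-numbered libraries correlated at 0.0658 to 0.506 in tissues, 0.0555 to 0.351 in hippocampus and 0.588 in the cultures, all of them positive. Since the labels name no shared source, not every value in tissues and hippocampus was over 0.1, and the cultures have only 2 pairs, the numbers were not used as pairs in the results above. With the replicate number as a block 2 members rose (Ndufa4l2 and Ndufa5) and 4 fell (Atp5sl, Ndufa11, Ndufb10 and Ndufs7) with bicuculline, where 11.2% of all genes were then higher and 13.5% lower. With it 7 members fell from E18 to P30 (29.3% of all genes), 2 rose from E18 to P1 (2.72%) and 27 fell from P10 to P30 (15.8%).

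Of single members, Cox6b2 in heart was not called with libraries scaled to equal medians or in 20-week libraries alone, Cox8b in brain and Cox6a2 from P1 to P10 were not called with a pseudocount of 0.1 TPM, nor Cox8a and Cox6b2 from P1 to P10 or Ndufc2 and Atp5o from P10 to P30 with no filter. Depth is unknown, so the precision of low TPM values cannot be given.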
